A study of Mus musculus with 9 samples.

Results

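The 8 genes described here make and consume glutathione in the mouse epididymis. Ggt1, Ggt5, Ggt6 and Ggt7 belong to the gamma-glutamyl transferase family. Gclc, Gclm and Gss build glutathione, and Gsr regenerates it. They were chosen by name, and all 8 had a value above 0 in at least 1 of 9 RNA libraries, among 16947 genes with a value. Of the 8, 6 passed the filter of at least 1 FPKM (sequenced fragments scaled by length and by the size of the library) in at least 3 libraries, as did 12009 genes in all. Ggt6 and Ggt7 did not pass and were not tested.

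The libraries hold oligo(dT)-selected RNA of the initial segment, the most proximal stretch of the epididymal duct, from C57BL/6 mice aged 4 weeks. There were 3 genotypes with 3 libraries each: Mst1/2; Yap triple knockout (tKO), Mst1/2 double knockout (dKO) and wild type (WT). Mst1 and Mst2 are the Hippo pathway kinases encoded by Stk4 and Stk3, and Yap is the transcriptional coactivator encoded by Yap1, which these kinases restrain. By label both knockout groups carry the Mst1 and Mst2 knockouts, and they differ in Yap. The promoter or cell type that drives the deletions is not given in the labels. The labels do not tell whether libraries of a group are from separate animals, so p-values measure only the spread between these samples.

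Glutathione is a tripeptide of glutamate, cysteine and glycine, and the main small thiol of cells. Glutamate-cysteine ligase, a catalytic subunit (Gclc) with a modifier subunit (Gclm), joins the first pair of amino acids in the rate-limiting step, and glutathione synthetase (Gss) adds glycine. Glutathione reductase (Gsr) returns the oxidised form to the reduced one. Gamma-glutamyl transferases sit on the outer face of the cell membrane and cleave the gamma-glutamyl bond of exported glutathione, so that its cysteine can be taken up again. The epididymal duct is rich in this activity. In the rat initial segment, Ggt1 transcripts from several promoters have long been used to follow the action of factors that arrive from the testis in the luminal fluid, and transcription factors of the PEA3 group of ETS proteins have been tied to one of these promoters.

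Sequencing depth behind the values is unknown, since only FPKM are listed. In a library, 14146 to 15106 genes had a value in tKO, 13509 to 13776 in dKO and 13658 to 13936 in WT. The first exons of a library summed to 231670 to 237207 FPKM in tKO, 237260 to 250097 in dKO and 249665 to 253235 in WT. Every tKO library thus listed more genes than any dKO or WT library. The part of this in the low values of Ggt5 and Ggt7 was not tested. Yap1 averaged 8.62 ± 0.267 FPKM in tKO, 26.5 ± 1.35 in dKO and 25.1 ± 1.84 in WT (SD, n = 3 each). The summed level of Stk3 averaged 6.89 ± 0.200 FPKM in tKO, 7.45 ± 0.848 in dKO and 7.85 ± 0.928 in WT, and that of Stk4 8.92 ± 0.826 in tKO, 8.57 ± 1.24 in dKO and 9.83 ± 0.817 in WT. The groups overlapped for both kinases and none of their differences was called. RNA that skips a pair of inner exons was listed in all 6 knockout libraries and in no WT library: of the RNA that spans these exons it made up 36.8% to 42.2% in tKO and 48.5% to 60.9% in dKO for Stk3 (chr15:35072430-35073221), and 24.5% to 58.7% in tKO and 59.4% to 68.6% in dKO for Stk4 (chr2:164086495-164089005). The rest of that RNA in the knockout libraries still held the exons. The exon pairs were singled out after their values were seen, and the labels do not say which exons were deleted. All 10 markers of initial segment principal cells, the main epithelial cell, were detected, and their summed level was 20115 to 25225 FPKM in tKO, 19301 to 22607 in dKO and 29402 to 31332 in WT. The 6 markers of narrow and clear cells summed to 47.3 to 55.8 FPKM in tKO, 38.4 to 41.0 in dKO and 59.1 to 67.2 in WT, and Foxi1 and Slc4a9 among them had no value in any library (events without a value are absent from the files and were read as 0). The summed level of 6 markers of ciliated efferent duct cells was 55.8 to 135 FPKM in tKO, 46.5 to 61.2 in dKO and 42.4 to 52.3 in WT, and that of 6 basal cell markers was 97.0 to 134 in tKO, 129 to 140 in dKO and 160 to 180 in WT, and no marker of either list was called in any comparison. Endothelial markers, 6 genes, summed to 36.9 to 43.3 FPKM in tKO, 26.2 to 31.5 in dKO and 35.8 to 36.9 in WT. In dKO versus WT 4 of the 10 principal cell markers, Car2 (narrow and clear cells), Tie1 (endothelium), Actg2 (smooth muscle) and Pdgfra (fibroblasts) were called lower. In tKO versus dKO 3 principal cell markers, Car2, Tie1 and Actg2 were called higher. Of all tested genes, 3.8% and 2.06% were called in these comparisons. Car2 averaged 26.4 FPKM in WT and 7.61 in dKO, while Atp6v1g3 of the same list had 12.7 and 14.0. Gpx5 was the largest part of the principal cell sum, with a mean of 16957 FPKM in WT and 14005 in dKO, and was not called. Lcn8 of that list averaged 4514 in WT and 809 in dKO, and Adam7 2601 and 2500, so its markers did not move alike. The part of these levels in the results below was not tested. In bulk tissue, fewer cells of a type and less RNA per cell cannot be told apart.

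The level of a gene is the sum of its first exons or of its last exons, whichever was larger over the 9 libraries. FPKM are per length, so levels of different genes can be ranked. By first exons and over all 9 libraries Ggt1 had the highest mean of the 8, with a level of 34.6 ± 6.85 FPKM (SD over 9 libraries), followed by Gclm at 30.4 ± 5.84 and Gsr at 25.5 ± 2.14. Ggt1 and Gclm, and Gclm and Gsr, differed by less than their spread. In tKO the mean of Gclm (32.7 FPKM) was above that of Ggt1 (30.4). By last exons Ggt1 averaged 22.3 FPKM in tKO, 28.5 in dKO and 22.0 in WT, Gclm 23.2 in tKO, 22.6 in dKO and 28.7 in WT, and Gsr 25.3 in tKO, 26.9 in dKO and 24.3 in WT, so the order of these 3 genes depends on the group and the exon class. Gclc followed at 15.4 ± 1.41 FPKM, below Gsr in every library, and Gss at 5.19 ± 1.02, below Gclc in every library. The 3 other transferase genes were near the lower limit of the data. Over the 9 libraries Ggt7 had 0 to 7.25 FPKM, Ggt5 0.179 to 2.29 and Ggt6 0 to 0.544, with overlapping ranges. In these libraries the transferase RNA of the initial segment was thus mostly that of Ggt1.

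**Figure D1:**
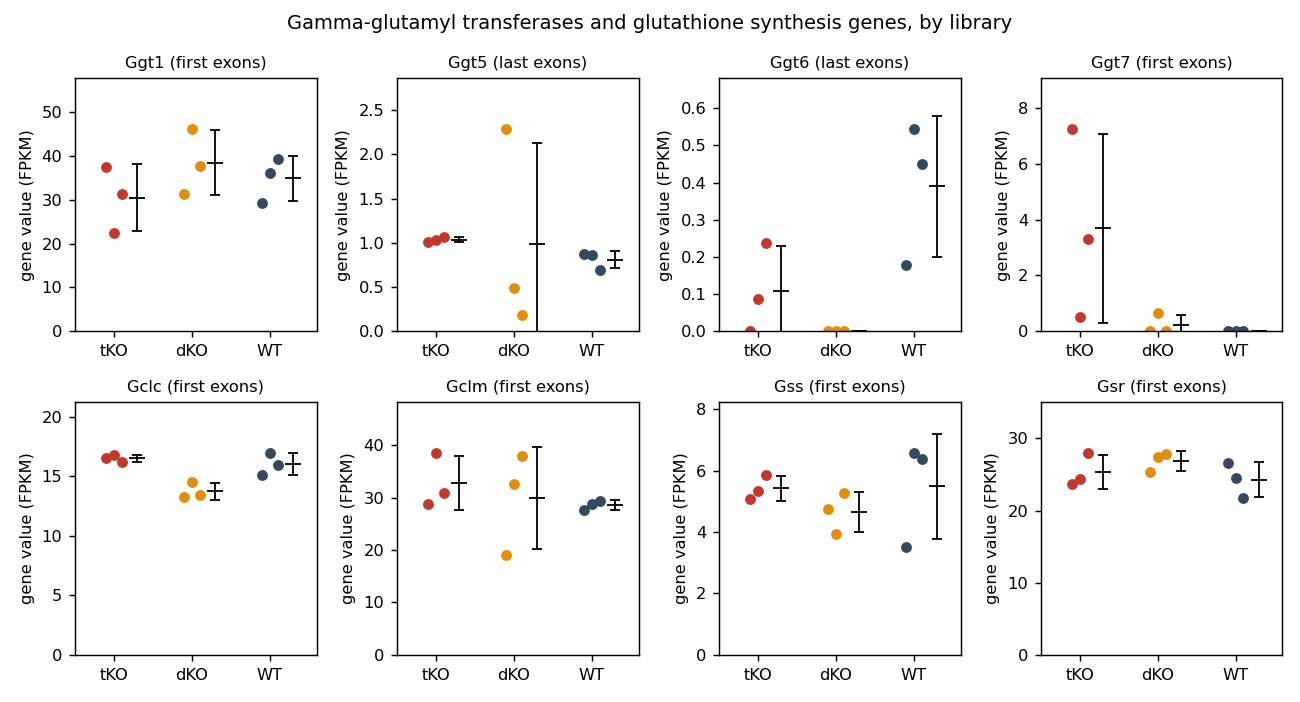
Gene values in FPKM (linear axes from 0, a scale for each gene) of the 8 genes, with 1 point per library in tKO, dKO and WT, and the mean with SD as a black mark to the right of each group. Each title says whether first or last exons were summed. Gclc is the gene in which the dKO points (13.2 to 14.5) lie below both WT (15.1 to 17.0) and tKO (16.2 to 16.8).

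None of the 6 tested genes was called changed in any of the 3 comparisons at an adjusted p under 0.05 (limma, Benjamini-Hochberg adjustment over all tested genes). For dKO versus WT, 0 of 6 were called against 3.8% of all tested genes. For tKO versus WT, 0 of 6 were called against 0.158%, and for tKO versus dKO, 0 of 6 against 2.06%. At an unadjusted p under 0.05 in the same limma fits the counts were 1 in dKO versus WT, 0 in tKO versus WT and 1 in tKO versus dKO, against 18.5%, 13.2% and 16.7% of all tested genes, and both were Gclc. Groups did not overlap for 1 of the 6 genes, Gclc, in dKO versus WT and in tKO versus dKO, against 27.6% and 22.1% of all tested genes. With 6 genes, such counts do not stand out from these shares. In tKO versus WT the groups of Ggt5 did not overlap, where 18.8% of all tested genes had such groups. Ggt5 reached 1 FPKM in the 3 tKO libraries and in dKO replicate 1 and passed the filter through tKO. Nothing is therefore read from its separation, and its fold changes are a description, though it stays in the counts and medians of the 6 genes. The median log2 fold change of the 6 genes was 0.00 in dKO versus WT, 0.05 in tKO versus WT and 0.18 in tKO versus dKO, beside 0.03, 0.04 and 0.02 over all tested genes. The widest 95% intervals were those of Ggt5, from -0.78 to 0.76 in dKO versus WT, so a missed threshold does not show that levels were alike.

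**Figure D2:**
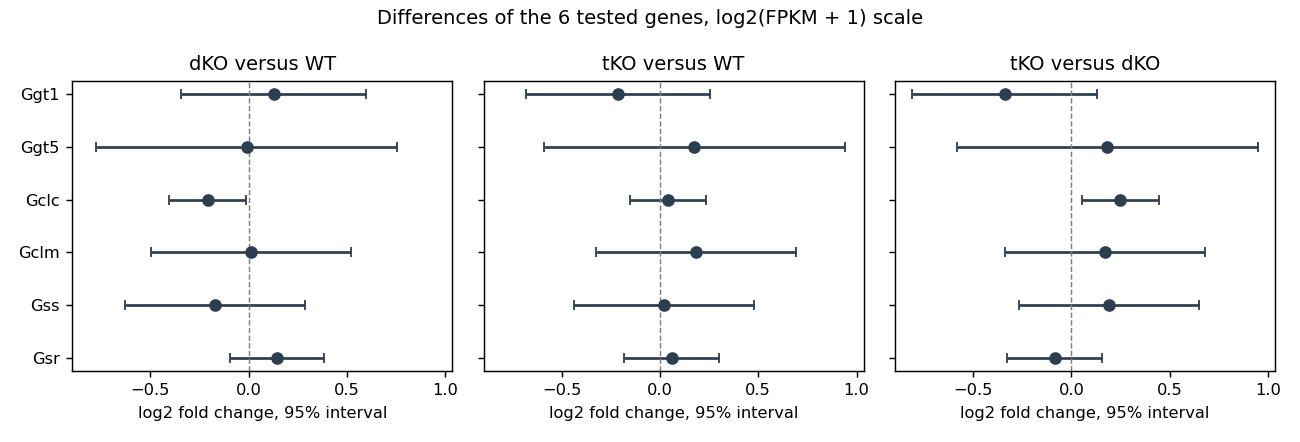
Log2 fold changes of the 6 tested genes on the log2(FPKM + 1) scale with 95% intervals from limma, in dKO versus WT, tKO versus WT and tKO versus dKO. A positive value means higher in the group named first. The Gclc intervals in dKO versus WT (-0.40 to -0.01) and in tKO versus dKO (0.05 to 0.45) leave out 0, and all others include it.

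Ggt1 (ENSMUSG00000006345) encodes the best characterised enzyme of the transferase family. It lies at chr10:75561604-75586200 on the plus strand of GRCm38, and 7 first exons in the files were placed in it. Only 2 start sites carried most of its RNA. The upstream one begins at chr10:75568634, 5602 bases before the start codon at chr10:75574236, which is the start codon of all 16 annotated transcripts that have one, of 20. The near one, chr10:75573448-75573748, begins 788 bases before it. Both thus lie before the annotated coding sequence. The RefSeq promoter windows (GRCm38.p6, plus strand, 250 bases before to 50 after the annotated start) that contain these sites are printed because the comparison of the start sites below turns on them. Capitals mark matches to TGACNNNGC, the core of the antioxidant response element, in the upstream window (read on the minus strand), and to AGGAAG, a core bound by ETS factors of the PEA3 group, in the near window.
Ggt1 upstream promoter, chr10:75568412-75568711: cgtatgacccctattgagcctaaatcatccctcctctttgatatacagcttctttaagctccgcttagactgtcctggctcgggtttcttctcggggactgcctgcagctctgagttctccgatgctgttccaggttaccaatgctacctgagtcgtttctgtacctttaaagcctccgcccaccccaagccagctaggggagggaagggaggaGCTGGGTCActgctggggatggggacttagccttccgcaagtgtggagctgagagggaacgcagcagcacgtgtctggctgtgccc
Ggt1 near promoter, chr10:75573245-75573544: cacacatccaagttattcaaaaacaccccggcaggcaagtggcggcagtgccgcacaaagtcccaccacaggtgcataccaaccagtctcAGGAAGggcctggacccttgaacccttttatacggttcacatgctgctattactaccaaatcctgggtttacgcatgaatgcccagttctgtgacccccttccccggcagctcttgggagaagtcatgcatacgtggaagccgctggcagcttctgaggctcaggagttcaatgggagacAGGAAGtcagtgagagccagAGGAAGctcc

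The near window holds AGGAAG 3 times on the plus strand, 1 of them 160 bases before and the others 20 and 40 bases after the RefSeq start, and the upstream window holds none. The upstream window holds TGACNNNGC 1 time. Both strands were searched for AGGAAG, TGACNNNGC and GGAATG, a core bound by the TEAD partners of Yap. These motifs do not overlap in these windows. Of 32851 RefSeq promoters, 35.35% hold AGGAAG, 12.39% TGACNNNGC and 14.66% GGAATG. RefSeq windows were matched to 5 of the 8 genes (Ggt1, Ggt6, Ggt7, Gclm and Gss), and 4 of the 8 windows found are of Ggt1. GGAATG occurs in none of the 4 Ggt1 windows. In the windows of the other genes, Gclm has 1 TGACNNNGC, Ggt7 1 AGGAAG and Ggt6 1 GGAATG, and Gss has none of the 3 motifs. A match describes letters and not binding, and these motifs are common.

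The upstream exon ends at either of a pair of splice donors 4 bases apart. The exon ends are shown because the ratio between these ends set all dKO libraries apart from all WT libraries. The sequence is that of GENCODE M21 transcripts, plus strand of GRCm38, and the 4 bases in capitals are those that only the longer exon keeps.
Inner donor, chr10:75568741-75568766: tcatcgtctctgagctgctggacatc
Outer donor, chr10:75568741-75568770: tcatcgtctctgagctgctggacatcGTAG

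The upstream exon that ends at the inner donor had 13.6, 5.56 and 2.03 FPKM in tKO, 10.3, 15.2 and 12.7 in dKO and 4.63, 4.02 and 5.92 in WT. The form that ends at the outer donor had 5.41, 0.199 and 11.3 FPKM in tKO, 0.184, 5.02 and 3.58 in dKO and 5.89, 14.0 and 12.9 in WT. All 3 dKO libraries thus lay above WT for the inner form and below WT for the outer form, while the tKO libraries spread over both ranges. The share of the pair that ended at the inner donor was 71.5%, 96.5% and 15.2% in tKO, 98.2%, 75.1% and 78.1% in dKO and 44.0%, 22.3% and 31.5% in WT. Its mean was 61.1% ± 41.6 in tKO, 83.8% ± 12.6 in dKO and 32.6% ± 10.9 in WT (SD, n = 3 each). The dKO mean exceeded the WT mean by 51.2 percentage points, with an exact two-sided permutation p of 0.1, the smallest that 3 against 3 libraries allow. For tKO the exact permutation p was 0.4 against WT and 0.4 against dKO. This pair was singled out after its values were seen. Event values are not counts of reads on 1 exon. In every library the near start, for example, had the same value as a later exon at chr10:75584820-75585007. How reads were split between forms that differ by 4 bases is not given, so the donor shares are estimates of unknown error.

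In the fit over single first exons, neither form passed the threshold. The inner form had a log2 fold change of 1.22 in dKO versus WT (95% interval 0.09 to 2.36, limma adjusted p = 0.31) and the outer form one of -1.82 (-3.92 to 0.29, limma adjusted p = 0.42). Of 14686 first exons tested, 1.33% were called in dKO versus WT, 0.17% in tKO versus WT and 1.1% in tKO versus dKO, and none of the 3 tested first exons of Ggt1 was among them. The groups did not overlap for all 3 in dKO versus WT, for none in tKO versus WT and for 1, the near start, in tKO versus dKO, against 22.8%, 16.4% and 19.5% of all tested first exons. These 3 exons belong to 1 gene, and the pair shares a start, so they are not independent. The sum of the pair was 19.0, 5.76 and 13.3 FPKM in tKO, 10.4, 20.2 and 16.3 in dKO and 10.5, 18.0 and 18.8 in WT. These ranges overlapped throughout. With all first exons that start there summed, an alternative chosen after the data were seen, the log2 fold change in dKO versus WT was -0.02 (95% interval -0.98 to 0.95, limma adjusted p = 0.99).

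The near start had 18.4, 16.5 and 11.9 FPKM in tKO, 20.3, 25.8 and 21.0 in dKO and 18.6, 17.6 and 19.9 in WT. Every dKO library lay above every WT and every tKO library, and tKO overlapped WT. On the log2(FPKM + 1) scale the difference was 0.24 in dKO versus WT (95% interval -0.13 to 0.62, limma adjusted p = 0.56), -0.27 in tKO versus WT (-0.64 to 0.11, 0.59) and -0.51 in tKO versus dKO (-0.88 to -0.13, 0.23). It made up 53.5% ± 18.2 of the first-exon sum in tKO, 58.8% ± 5.25 in dKO and 54.2% ± 7.92 in WT. Over all 15 tests of first-exon shares in Ggt1 and Gss, the exact permutation p was at least 0.1 and the adjusted p at least 0.75. The other first exons of Ggt1 were minor: the exon at chr10:75571526-75571643 had 2.09 FPKM in tKO replicate 3 and at most 0.578 in the other libraries, and that at chr10:75585105-75585499, near the 3′ end of the gene, had 3.75 in tKO replicate 3 and at most 0.103 elsewhere.

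**Figure D3:**
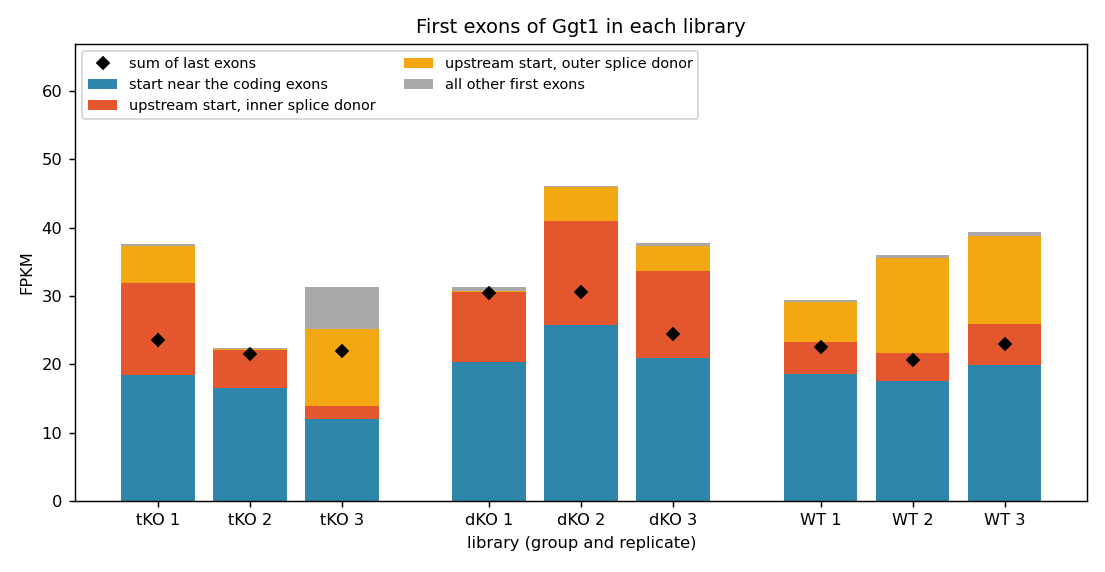
Stacked FPKM of the first exons of Ggt1 in each library (bars, linear axis from 0), split into the near start, both donor forms of the upstream start and all others, with the sum of last exons as a diamond. The near start had 11.9 to 18.4 FPKM in tKO, 20.3 to 25.8 in dKO and 17.6 to 19.9 in WT, and the outer donor form exceeds the inner one in all 3 WT libraries, in tKO replicate 3 and in no dKO library.

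Summed over first exons, Ggt1 had 37.5, 22.4 and 31.4 FPKM in tKO, 31.4, 46.1 and 37.7 in dKO and 29.4, 36.0 and 39.4 in WT. The groups overlapped, and tKO replicate 2 was the lowest of the 9. That library also had the highest summed level of the ciliated efferent duct markers (135 FPKM) and of 6 fibroblast markers, 1198 FPKM beside 529 to 708 in the other libraries, and the part of this in its Ggt1 level was not tested. By first exons the log2 fold change of Ggt1 was 0.13 in dKO versus WT (95% interval -0.34 to 0.60, limma adjusted p = 0.81), -0.21 in tKO versus WT (-0.68 to 0.26, 0.70) and -0.34 in tKO versus dKO (-0.81 to 0.13, 0.46). Without tKO replicate 2 the tKO versus WT value was -0.014 (limma adjusted p = 0.99), and the tKO versus dKO value -0.14 (0.78). The last exons gave a tighter picture, with 23.6, 21.5 and 21.9 FPKM in tKO, 30.4, 30.6 and 24.4 in dKO and 22.5, 20.6 and 23.0 in WT. By this measure every dKO library lay above every tKO and every WT library. By the main measure, 27.6% of all tested genes had groups that did not overlap in dKO versus WT and 22.1% in tKO versus dKO. The share for last exons was not computed, so nothing is read from this separation. The last-exon sum does not cover all RNA listed by first exons, and much of it repeats the near start. In WT replicate 3 it was 23.0 FPKM, beside 19.9 for the near start and 2.98 for RNA that keeps the intron named below. The upstream pair had 18.8 in that library. Last exons are thus not a separate measure of the whole gene. With last exons taken first for all genes, the log2 fold change of Ggt1 was 0.35 in dKO versus WT (limma adjusted p = 0.12) and 0.02 in tKO versus WT, where its sign turned. Both measures left Ggt1 uncalled. Set against its main spliced form alone, the retained form of the intron at chr10:75581434-75584819 made up 17.4% ± 5.16 in tKO, 18.4% ± 6.37 in dKO and 15.1% ± 2.30 in WT, with an exact permutation p of 0.6 in each comparison. Another spliced form, which resumes at chr10:75584798, was left out of these shares. It had 1.89 FPKM in tKO replicate 1, 3.02 in tKO replicate 3 and 3.01 in dKO replicate 1 and no value elsewhere. The shares of those libraries are thus overstated.

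Among the 5 tested genes whose levels followed Ggt1 most closely over the 9 libraries were Slc41a2, a magnesium transporter (Pearson's r = 0.968), the ribosomal protein genes Rps26 (0.907) and Rps7 (0.883), and Atpaf2, an assembly factor of the mitochondrial ATP synthase (0.876). These correlations are on the log2(FPKM + 1) scale, with predicted gene models left out, and are given as a description without a test.

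Ggt5 (ENSMUSG00000006344, chr10:75589340-75617200, plus strand) lies 3139 bases beyond Ggt1. Its product cleaves glutathione and converts leukotriene C4 to D4. By its last exons Ggt5 had 1.01, 1.04 and 1.06 FPKM in tKO, 2.29, 0.490 and 0.179 in dKO and 0.870, 0.857 and 0.696 in WT. All 3 tKO libraries lay above all 3 WT libraries, and dKO replicate 1 stood above all others. That value came from a last exon at chr10:75605256-75605403 whose next highest value was 0.274 FPKM, in WT replicate 2. By its single first exon, dKO replicate 1 had 0.595 FPKM, and the 3 groups then did not overlap, with tKO highest and dKO lowest. Of all tested first exons, 22.8% had such groups in dKO versus WT, 16.4% in tKO versus WT and 19.5% in tKO versus dKO. That exon reached 1 FPKM in the tKO libraries alone and passed the filter through them, so its log2 fold changes of -0.36 in dKO versus WT, 0.17 in tKO versus WT and 0.53 in tKO versus dKO are a description with no test. By its last exons, which also passed the filter through tKO, the fold changes were -0.01 in dKO versus WT, 0.17 in tKO versus WT and 0.18 in tKO versus dKO. They are likewise a description with no test. Values this low lie near the pseudocount of 1, so these fold changes understate ratios. The summed endothelial markers, given above, were highest in tKO and lowest in dKO. Their lowest tKO library (36.94 FPKM) lay close to their highest WT library (36.88). The first exon of Ggt5 is not set against this order, since it passed the filter through tKO. By mean, Pecam1, Cdh5, Tie1 and Kdr had the order of the sum. Tek was lowest in WT (1.03 FPKM, against 1.17 in dKO) and Emcn highest in WT (6.32, against 6.13 in tKO). The part of these markers in the Ggt5 levels was not tested.

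Ggt6 and Ggt7, the less studied members of the family, stayed under the filter. Ggt6 (chr11:72435526-72438400) had no value in tKO replicate 1 and in all dKO libraries. It had 0.0855 and 0.239 FPKM in the other tKO libraries and 0.178, 0.544 and 0.449 in WT. No dKO library thus had a value, and tKO and WT overlapped. Ggt7 (chr2:155490379-155518237, minus strand) had 7.25, 0.524 and 3.30 FPKM in tKO, 0.636 in dKO replicate 2 and no first-exon value in the other dKO and in all WT libraries. Its last exons gave 2.70, 0 and 2.11 FPKM in tKO, 0.566, 0.636 and 0.850 in dKO and 0, 1.48 and 0.807 in WT, with overlap of all groups. In tKO replicates 1 and 3 the first-exon values of Ggt7 exceeded its last-exon values.

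Gclc (ENSMUSG00000032350, chr9:77754535-77794485, plus strand), the catalytic subunit of glutamate-cysteine ligase, had 16.5, 16.8 and 16.2 FPKM in tKO, 13.2, 14.5 and 13.5 in dKO and 15.1, 17.0 and 16.0 in WT. All dKO libraries lay below all WT and all tKO libraries, and tKO overlapped WT. The means were 16.5 ± 0.277 in tKO, 13.7 ± 0.683 in dKO and 16.0 ± 0.937 in WT (SD, n = 3 each). In the limma fit the log2 fold change was -0.21 in dKO versus WT (95% interval -0.40 to -0.01, limma adjusted p = 0.24), 0.04 in tKO versus WT (-0.15 to 0.24, 0.87) and 0.25 in tKO versus dKO (0.05 to 0.45, 0.19). Before adjustment limma gave 0.039 in dKO versus WT and 0.018 in tKO versus dKO. Neither difference passed the threshold after adjustment over all genes. One first exon, chr9:77754535-77754959, carried nearly all of the level, and its fold changes were close to those of the gene.

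Gclm (ENSMUSG00000028124, chr3:122245557-122270732, plus strand), the modifier subunit, had 28.8, 38.6 and 30.9 FPKM in tKO, 19.1, 32.7 and 38.0 in dKO and 27.6, 28.7 and 29.4 in WT. The WT libraries were close together, and dKO ranged from below to above all of them. The fitted log2 fold change was 0.01 in dKO versus WT (95% interval -0.50 to 0.52, limma adjusted p = 0.99), 0.18 in tKO versus WT (-0.33 to 0.69, 0.78) and 0.17 in tKO versus dKO (-0.34 to 0.68, 0.76). The last exons gave 29.0, 9.82 and 30.9 FPKM in tKO, 19.1, 25.5 and 23.2 in dKO and 27.8, 28.7 and 29.6 in WT. By this measure every dKO library lay below every WT library, tKO replicate 2 was the lowest of the 9, and the sign turned in all 3 comparisons, with log2 fold changes of -0.34 in dKO versus WT, -0.45 in tKO versus WT and -0.10 in tKO versus dKO, none called. No direction can therefore be given for Gclm. By the main measure, 27.6% of all tested genes had groups that did not overlap in dKO versus WT, and the share for last exons was not computed.

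Gss (ENSMUSG00000027610, chr2:155563181-155592810, minus strand), the enzyme of the final step, had 5.07, 5.32 and 5.87 FPKM in tKO, 4.75, 3.94 and 5.25 in dKO and 3.52, 6.58 and 6.37 in WT. WT replicate 1 was the lowest of the 9, and the groups overlapped. Its log2 fold change was -0.17 in dKO versus WT (95% interval -0.63 to 0.29, limma adjusted p = 0.72), 0.02 in tKO versus WT (-0.44 to 0.48, 0.98) and 0.19 in tKO versus dKO (-0.27 to 0.65, 0.69). Its main first exon, chr2:155592694-155592810, held 91.1% ± 10.7 of the first-exon sum in tKO, 99.0% ± 1.73 in dKO and 98.6% ± 1.32 in WT. In tKO replicate 3 this share was 78.7%, where another first exon at chr2:155583897-155584096 held 16.3%, and that exon had no value in the other libraries.

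Gsr (ENSMUSG00000031584, chr8:33652523-33698163, plus strand), which recycles oxidised glutathione, had 23.6, 24.3 and 28.0 FPKM in tKO, 25.4, 27.4 and 27.8 in dKO and 26.6, 24.5 and 21.7 in WT. The groups overlapped. The log2 fold change was 0.14 in dKO versus WT (95% interval -0.10 to 0.39, limma adjusted p = 0.52), 0.06 in tKO versus WT (-0.18 to 0.30, 0.85) and -0.09 in tKO versus dKO (-0.33 to 0.16, 0.75). Gsr was read from 1 first exon, and its last exons gave the same values.

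Genes that supply the pathway and use its product were followed in lists around the 8 genes. For glutathione breakdown and cysteine supply, 15 of 20 listed genes were tested. In dKO versus WT 0 of the 15 rose and 2 fell, with a median log2 fold change of -0.09, where 1.47% of all tested genes rose and 2.33% fell. In tKO versus WT none was called in either direction, with a median of -0.21, and in tKO versus dKO 1 rose and none fell, with a median of 0.09, where 1.2% of all tested genes rose and 0.858% fell. Both genes that fell in dKO encode amino acid transporters. Slc1a1, which takes up glutamate and cysteine, had 124, 147 and 128 FPKM in tKO, 78.7, 81.9 and 74.8 in dKO and 161, 156 and 151 in WT. It was lowest in the dKO libraries without overlap, and the tKO libraries lay between dKO and WT. Its log2 fold change was -0.98 in dKO versus WT (limma adjusted p = 0.0012), -0.23 in tKO versus WT (0.35) and 0.75 in tKO versus dKO (0.0067), and both calls held without any 1 library. Slc7a11, the cystine-glutamate exchanger, had 7.47, 5.65 and 5.54 FPKM in tKO, 2.85, 1.91 and 3.59 in dKO and 6.83, 11.0 and 7.93 in WT. The dKO libraries were lowest without overlap, and tKO overlapped WT. Its log2 fold change was -1.34 in dKO versus WT (limma adjusted p = 0.016), and its adjusted p was 0.065 without WT replicate 2 and 0.055 without WT replicate 3. In tKO versus dKO it was 0.95 (limma adjusted p = 0.065), which missed the threshold. Its heavy chain partner Slc3a2 averaged 152 ± 29.9 FPKM in tKO, 142 ± 11.3 in dKO and 213 ± 13.0 in WT and was not called (limma adjusted p = 0.060 in dKO versus WT). Cth of the same list went the other way, with 8.76 ± 0.716 FPKM in tKO, 11.3 ± 2.74 in dKO and 6.10 ± 1.47 in WT. Its log2 fold change was 0.79 in dKO versus WT (limma adjusted p = 0.056) and 0.48 in tKO versus WT (0.35), and it was not called. Its dKO libraries lay above WT without overlap, where 27.6% of all tested genes had groups that did not overlap. The summed levels of principal cell markers and of narrow and clear cell markers, given above, were also lower in dKO than in WT. Their part in the falls of Slc1a1 and Slc7a11 was not tested.

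Among enzymes that use glutathione, 18 of 27 listed glutathione transferases were tested. In dKO versus WT 1 rose and none fell, where 1.47% of all tested genes rose and 2.33% fell. None was called in tKO versus WT or in tKO versus dKO, where 0.158% and 2.06% of all tested genes were. Their median log2 fold changes were 0.09, -0.04 and -0.14 in these 3 comparisons. The gene that rose was Mgst3, a microsomal transferase, with 9.27, 9.21 and 10.3 FPKM in tKO, 12.9, 15.3 and 16.5 in dKO and 11.0, 9.05 and 8.54 in WT. The dKO libraries were highest without overlap. Its log2 fold change of 0.59 in dKO versus WT (limma adjusted p = 0.039) lost its call without any 1 of 7 libraries, namely WT replicates 2 and 3, dKO replicates 1, 2 and 3 and tKO replicates 1 and 2, where the adjusted p was 0.052 to 0.14. It also lost its call with the replicate block (limma adjusted p = 0.10), with only the 6 libraries compared (0.067), with no filter (0.054) and with no mean-variance trend (0.0504). None of the 17 tested thioredoxin, glutaredoxin and peroxiredoxin genes was called in any comparison, with median log2 fold changes of -0.07, 0.02 and 0.00. None of 4 tested genes of the leukotriene C4 route, of 8 listed, was called either, with medians of 0.05, 0.13 and 0.07.

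Nrf2 is the transcription factor that induces glutathione synthesis genes under oxidative stress. Of 18 tested genes in a list of Nrf2 and its targets, 1 rose and 2 fell in dKO versus WT (1.47% and 2.33% of all tested genes), none was called in tKO versus WT (0.158%), and 1 rose and none fell in tKO versus dKO (1.2% and 0.858%), with median log2 fold changes of 0.04, 0.04 and -0.07. Ephx1, the microsomal epoxide hydrolase, had 23.2, 24.7 and 21.9 FPKM in tKO, 37.5, 33.2 and 36.7 in dKO and 25.6, 17.5 and 18.9 in WT, with dKO highest and no overlap. It rose by 0.78 in dKO versus WT (limma adjusted p = 0.020). Its adjusted p was 0.083 without WT replicate 2, 0.080 without WT replicate 3, 0.069 without dKO replicate 1, 0.054 without dKO replicate 2 and 0.075 without dKO replicate 3. Both genes that fell are transporters, Slc7a11, given above, and Abcc4, an exporter of organic anions and of glutathione. Abcc4 had 13.9, 12.5 and 12.0 FPKM in tKO, 6.48, 5.57 and 3.62 in dKO and 11.7, 11.0 and 13.1 in WT. The dKO libraries were lowest without overlap, and tKO overlapped WT. Its log2 fold change was -1.08 in dKO versus WT (limma adjusted p = 0.016) and 1.17 in tKO versus dKO (0.015). In dKO versus WT the adjusted p was 0.055 without WT replicate 2 and 0.067 without WT replicate 3. Abcc4 was the only called gene of 5 tested conjugate exporters, of 6 listed, whose median log2 fold changes were 0.00 in dKO versus WT, 0.10 in tKO versus WT and 0.05 in tKO versus dKO.

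The PEA3 factors Etv4 and Etv5, whose core motif AGGAAG is found in the near Ggt1 window, fell in dKO versus WT by 1.64 and 1.08 on the log2 scale (limma adjusted p = 8.5e-04 and 7.5e-04). In tKO versus dKO they rose by 1.62 and 0.82 (limma adjusted p = 0.0019 and 0.0051), while the third member of the group, Etv1, was not called. Their relation to the near Ggt1 start was not tested.

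**Figure D4:**
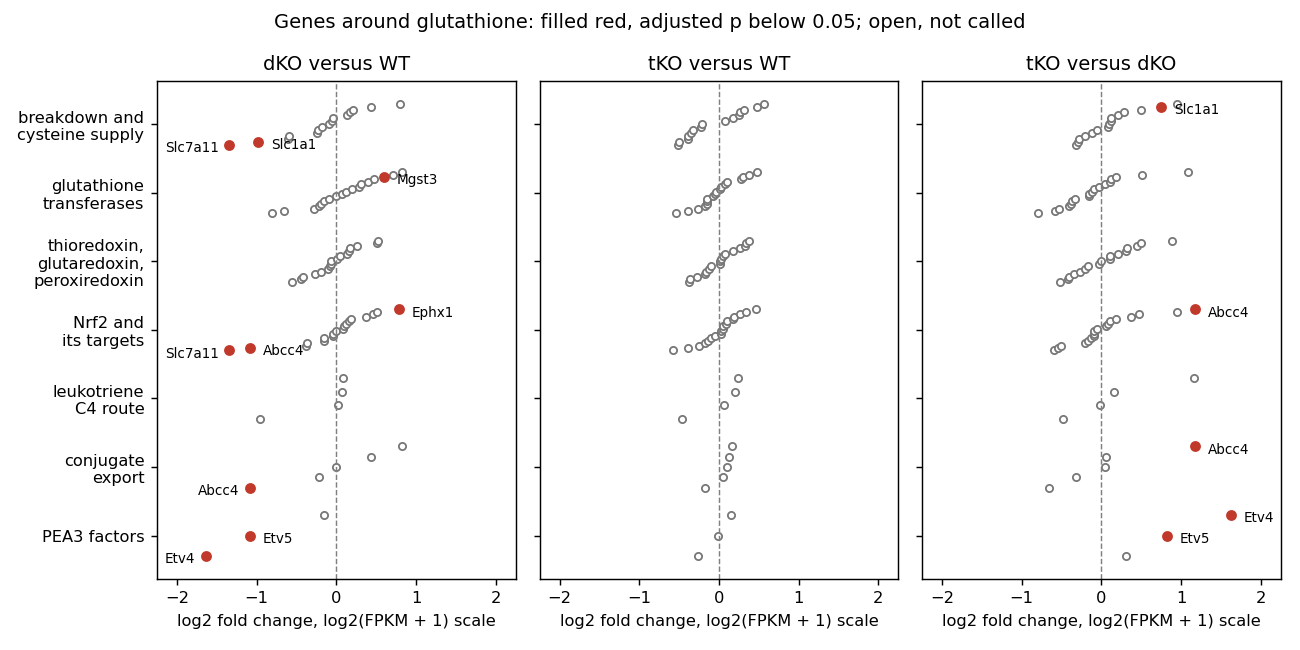
Log2 fold changes of all tested genes of the 7 lists around glutathione in dKO versus WT, tKO versus WT and tKO versus dKO, 1 point per gene on the log2(FPKM + 1) scale, spread vertically within each list for legibility. Filled red points, named, had a limma adjusted p under 0.05 and open points did not. The called points are the transporters Slc1a1, Slc7a11 and Abcc4, the enzymes Mgst3 and Ephx1, and Etv4 and Etv5, and the tKO versus WT panel holds none.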

How the data were processed

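The authors deposited 1 table per library whose values are FPKM per transcript event (first exons, last exons, skipped exons, retained introns and the like), per the file headers. Of tools, bcl2fastq 2.17.1.14 and DESeq appear in the submitters' processing notes, with no role stated. For aligner and genome build the sources used here give nothing. Event positions were compared with GENCODE M21 (GRCm38): an annotated splice site matched 81.5% of 36623 first-exon events and 82.4% of 21612 last-exon events. Other events went to the gene named in the file if within 5000 bases of it on the same strand. A first-exon event at chr10 upstream of Ggt1 beyond that distance was left out. Repeated listings of an event held identical values and were used once.

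Genes and, separately, single first exons with at least 1 FPKM in at least 3 of 9 libraries were fitted on log2(FPKM + 1) by limma 3.58.1 (R 4.3.3) with a mean-variance trend, group as the only term and 9 libraries in 1 model. Two-sided p-values received Benjamini-Hochberg adjustment over every gene, or every first exon, in the fit, with a threshold of 0.05. The pseudocount of 1 shrinks fold changes of low genes. The fit was tested on simulated data. Shares were compared with exact two-sided permutation tests over libraries (SciPy 1.17.1), where 0.1 is the smallest p. Tables and plots used Python 3.11.15, pandas 2.3.3, numpy 2.4.6 and matplotlib 3.10.9. Events at 0 are not listed in the files and were read as 0, and no counting interval can be given without read counts.

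The 8 genes and all lists were chosen with earlier results of these data known. Named were the 8 genes, their first exons, and up to 4 genes per list with the smallest adjusted p. Alternatives changed the pseudocount, filter, scaling, exon class, replicate block, libraries in the model and variance trend, and left out each library in turn. Of the genes most like Ggt1, 1 is not reported here.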

Additional observations from a re-analysis of the deposited data

How the results depend on the processing

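None of 413 alternative values of the 6 tested genes and the 3 tested Ggt1 first exons was called (lowest limma adjusted p 0.097), and 389 kept their direction. With the replicate block, 233 genes were called in dKO versus WT, 3 in tKO versus WT and 140 in tKO versus dKO, and 48, 6 and 25 first exons. Libraries with the same number did not deviate together (correlations of -0.111 to 0.00853), so the numbers were not read as pairs. With only the 6 libraries compared, 8 genes were called in tKO versus WT and 157 in tKO versus dKO, and with no filter 29 in tKO versus WT. Leaving out 1 library gave 105 to 450 genes in dKO versus WT (lowest without WT replicate 2), 5 to 153 in tKO versus WT (lowest without WT replicate 2, highest without tKO replicate 1) and 83 to 330 in tKO versus dKO (lowest without dKO replicate 2), and 62 to 183, 12 to 51 and 52 to 167 first exons. The sign turned with last exons first for Ggt1 in tKO versus WT (0.017) and for Gclm in dKO versus WT (-0.34), tKO versus WT (-0.45) and tKO versus dKO (-0.10). It turned with median-ratio scaling in tKO versus WT for Gclc (-0.0038), Gss (-0.0197) and Mgst3 (-0.031), and in dKO versus WT for Gclm (-0.0197). Leaving out 1 library turned the sign within these ranges: Ggt1 (-0.011 to 0.26), Ggt5 (-0.45 to 0.29) and Gclm (-0.18 to 0.29) in dKO versus WT, Ggt5 (-0.12 to 0.62) and Gclm (-0.11 to 0.37) in tKO versus dKO, and Gss (-0.22 to 0.15), Gsr (-0.015 to 0.12), Etv4 (-0.12 to 0.11) and Mgst3 (-0.056 to 0.11) in tKO versus WT. The same held for the inner donor form of Ggt1 in tKO versus WT (-0.38 to 0.75) and its outer form in tKO versus dKO (-0.21 to 1.47). In percentage points it held for the share of the near Ggt1 start in tKO versus WT (-10.7 to 7.11) and tKO versus dKO (-15.3 to 2.50) and of the main Gss exon in dKO versus WT (-0.21 to 1.40). The cause was not tested. For Ggt5 in dKO versus WT, with only the 6 libraries compared, no value was obtained because the gene missed the filter. Depth is unknown, which leaves the low values of Ggt5, Ggt6 and Ggt7 without a counting error.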
